A study of Mus musculus with 11 samples.

Results

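In mouse epiblast stem cells (EpiSCs), 63192 of the 103281 OTX2 ChIP-seq peaks lay away from transcription start sites (TSSs) and shared no base with a peak of ZIC2, SOX2, POU5F1 or POU3F1. These OTX2-alone peaks were selected on measured peak positions. Each had to lie on chromosomes 1 to 19 or X, have its midpoint more than 2000 bp from every annotated TSS, and overlap no peak of the other 4 TFs by even 1 bp. They made up 61.2% of all OTX2 peaks and 72.9% of the 86679 distal ones. The other 23487 distal OTX2 peaks carried at least 1 further TF and served for comparison. ZIC2 was at 10798 of them, SOX2 at 6415, POU5F1 at 4441 and POU3F1 at 6666, and a peak with several TFs counts in each group.

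The cells were a 129/Sv line grown without feeders in N2/B27 medium, and all libraries came from this background. EpiSC cultures received activin at 20 ng/ml beside Fgf2 at 10 ng/ml, while the activin-free cultures went without activin for 18 h before harvest. Each TF was expressed from a transiently transfected pCAGGS vector with a BLRP tag that co-expressed BirA biotinylates, so the peaks include binding of added, tagged protein, and bound DNA was pulled down on streptavidin. There was 1 library per TF and culture, so no difference has a replicate check, and every interval below is a 95% interval for counting error only that treats peaks as independent. In all 10 peak lists, a peak with a score of 3100 lay over the coding exons of the library's own TF gene. Both ZIC2 lists also had scores from 2029 to 3100 over the coding exons of Sox2, Pou5f1 and Pou3f1. Over those of Zic2, the OTX2 lists had top scores of 678 in EpiSCs and 1450 in activin-free culture. The POU3F1 lists had 1118 and 1459 there, and the activin-free SOX2 and POU5F1 lists 721 and 236. In EpiSCs, 0 OTX2-alone peaks lay over the coding exons of any of the 5 TF genes. The selection rule largely sets this count. Each other TF's list had a peak over its own gene, and OTX2 peaks that overlap such a peak, or lie near a TSS, are left out. The count is therefore not a separate check on signal from the vectors, which was not tested. Read depth per library was unknown, because the lists give peaks and not reads.

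OTX2 is a paired-type homeodomain protein. A lysine in its recognition helix lets it prefer TAATCC, written GGATTA on the opposite strand, over the TAATTA that many other homeodomains bind. It is needed for the anterior patterning of the embryo and for the forebrain and midbrain, and it marks the primed state of the epiblast. ZIC2 is a zinc finger protein, SOX2 an HMG box protein, and POU5F1 and POU3F1 are POU domain proteins that read octamer-like DNA.

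The 6 OTX2-alone peaks with the highest scores are shown first, because they show how differently OTX2 sequence can be arranged under strong peaks. A peak's score rises as its P value in the peak caller falls, and 50 was the lowest score in the list. Each line gives bases of the mm9 plus strand, 5′ to 3′, from the part of the peak richest in 4 sequences, and capitals mark them. These are GGATTA and its variant AGATTA, which share the core GATTA, and the pair AGCTTA and, differing in its first base, GGCTTA, which share the core GCTTA, each on either strand. Where a peak held none, the bases around its midpoint are given.
D15Ertd621e intron, chr15:58270822-58270942: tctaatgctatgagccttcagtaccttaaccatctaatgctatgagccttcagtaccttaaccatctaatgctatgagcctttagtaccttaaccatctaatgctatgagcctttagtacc
Stk35 intron, chr2:129632685-129632805: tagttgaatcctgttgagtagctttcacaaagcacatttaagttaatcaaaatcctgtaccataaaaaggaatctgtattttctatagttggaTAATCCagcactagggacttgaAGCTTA
Atp8a2 intron, chr14:60612936-60613056: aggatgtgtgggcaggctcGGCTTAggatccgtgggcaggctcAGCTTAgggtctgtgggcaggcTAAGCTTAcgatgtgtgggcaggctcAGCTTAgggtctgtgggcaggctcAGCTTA
near Xbp1, chr11:5427702-5427822: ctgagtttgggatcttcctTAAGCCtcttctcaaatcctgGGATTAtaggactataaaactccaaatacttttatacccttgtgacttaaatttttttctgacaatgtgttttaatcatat
Ybx1 intron, chr4:118956574-118956694: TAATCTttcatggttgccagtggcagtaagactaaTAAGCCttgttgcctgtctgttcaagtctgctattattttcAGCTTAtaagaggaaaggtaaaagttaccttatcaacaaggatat
near Myrip, chr9:120197220-120197340: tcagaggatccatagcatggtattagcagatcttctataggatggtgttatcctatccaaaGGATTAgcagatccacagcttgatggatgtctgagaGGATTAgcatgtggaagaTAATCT

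The strongest peak, chr15:58269119-58272645, scored 2399 and lay in an intron of D15Ertd621e. It held 0 copies of the 4 sequences in 3527 bp and was a tandem array with a repeat unit of 32 bases. The peak at chr2:129630483-129633978 scored 2070 in an intron of Stk35, a kinase gene, and had 10 copies with no array. The peak at chr14:60610318-60614526 scored 1901 in an intron of Atp8a2, which encodes a phospholipid flippase. It was an array with a unit of 24 bases and held 146 copies, 142 of them AGCTTA. The peak at chr11:5423992-5431532 scored 1860, lay outside genes at 5836 bp from a TSS of Xbp1, which encodes a TF of the unfolded protein response, and held 20 copies. The peak at chr4:118955661-118965082 scored 1830, spanned 9422 bp with its midpoint in an intron of Ybx1, which encodes a nucleic acid-binding protein, and held 34 copies. The peak at chr9:120196001-120197589 scored 1704, lay outside genes at 16259 bp from a TSS of Myrip, and was an array with a unit of 45 bases and 3 copies. All 6 overlapped an OTX2 peak of the activin-free culture, which scored 3100, 3100, 1581, 1442, 1315 and 2154 in the same order. In that culture the Ybx1 peak also overlapped peaks of POU5F1 and POU3F1. Across the 6, high score and many OTX-type sequences did not always go together.

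A second set shows the inverted pair, in which TAATC is followed after 1 base by its reverse complement GATTA, an arrangement that paired-type homeodomains can bind as dimers. The pair occurred within 100 bp of the midpoint in 51 OTX2-alone peaks, or 0.0807% (0.0614 to 0.106). It was in 0.00791% of flanking windows (0.00430 to 0.0146), a 10.2-fold ratio that rests on few windows. GATTA alone was at 51.5% of midpoints and 25.9% of flanks. Whether the pair exceeds what this frequency gives was not tested. The share with the pair was 0.0689% over all OTX2 peaks and 0.135% (9 peaks, 0.0711 to 0.256) at distal OTX2 peaks with POU3F1. The pair was thus not particular to OTX2-alone peaks. The 3 highest-scoring of them had scores of 433, 350 and 298, and the pair is in capitals.
Clpb intron, chr7:108921388-108921508: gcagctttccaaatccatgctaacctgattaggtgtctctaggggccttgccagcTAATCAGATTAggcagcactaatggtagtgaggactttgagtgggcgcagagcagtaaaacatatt
Gm13561 intron, chr2:62282232-62282352: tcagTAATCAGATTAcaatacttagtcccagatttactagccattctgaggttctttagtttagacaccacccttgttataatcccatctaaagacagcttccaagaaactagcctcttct
nearest Elac2, chr11:64698084-64698204: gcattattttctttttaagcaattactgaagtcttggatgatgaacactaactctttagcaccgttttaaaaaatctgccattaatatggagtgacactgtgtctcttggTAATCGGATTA

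The third set shows peaks with the most GGATTA within 100 bp of the midpoint, with 13, 8 and 7 copies. The last is the highest-scoring of 4 peaks with 7 copies, shown with GGATTA or TAATCC in capitals. Their scores were 772, 114 and 655, and their activin-free OTX2 scores were 1184, 362 and 788.
nearest Gucy1b2, chr14:63106393-63106513: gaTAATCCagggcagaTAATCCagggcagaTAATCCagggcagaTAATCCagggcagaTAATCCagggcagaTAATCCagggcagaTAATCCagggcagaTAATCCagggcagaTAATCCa
Wnk2 intron, chr13:49149891-49150011: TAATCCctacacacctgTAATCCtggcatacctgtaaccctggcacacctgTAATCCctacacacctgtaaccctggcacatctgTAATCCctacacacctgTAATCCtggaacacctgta
Gm20388 intron, chr8:122786817-122786937: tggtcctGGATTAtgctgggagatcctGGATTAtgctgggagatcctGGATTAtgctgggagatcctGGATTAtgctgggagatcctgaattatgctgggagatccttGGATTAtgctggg

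GGATTA was concentrated at the middle of the OTX2-alone peaks. It was present on either strand within 100 bp of the midpoint in 25.3% of them (24.9 to 25.6), where the background over all OTX2 peaks was 23.6%, so most of this share is common to OTX2 peaks in general. Windows of the same length centred 1000 bp to either side held it in 9.23%, so the difference was 16.1 points (15.7 to 16.4). In this window 47220 peaks had no copy, 14038 had 1, 1737 had 2 and 147 had 3. Over the whole peak, 54.3% had at least 1 GGATTA. Its density was highest at 0 bp, at 1.65 per kb, and was 0.496 per kb at 800 bp and beyond, a 3.33-fold ratio, and it stayed above the middle of this range from −100 to 120 bp.

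**Figure D1:**
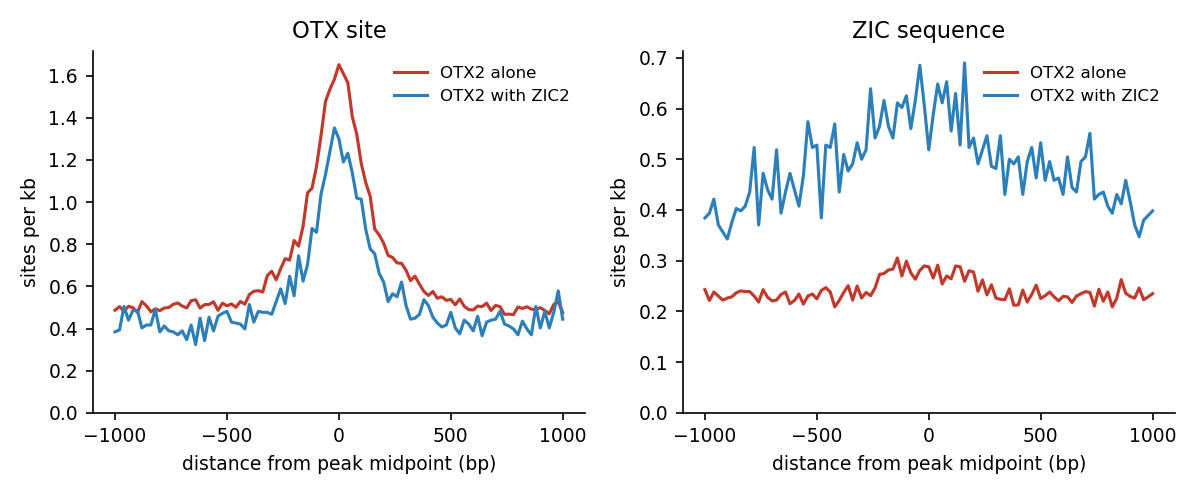
Density of the OTX site (GGATTA, left) and the ZIC sequence (CAGCAGG, right) in sites per kb against the distance from the peak midpoint in bp, in 20 bp steps, for OTX2-alone peaks and for distal OTX2 peaks with ZIC2. The OTX site reached 1.65 per kb at OTX2-alone peaks and 1.35 per kb with ZIC2, while the ZIC sequence stayed near 0.3 per kb or below at OTX2-alone peaks.

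Ranking every 6-base sequence by its frequency at midpoints over flanks gave an OTX-type vocabulary. Among 1889 sequences found at 1% or more of the midpoints, 8 of the first 10 held GATTA or GCTTA on a strand. The first place went to CTAATC (2.90-fold), the second to GGATTA (2.74-fold) and the third to AGATTA (2.55-fold). Next came CTAAGC (2.44-fold), then AGCTTA (2.37-fold), GGCTTA (2.31-fold) and GCTTAA (2.28-fold). The palindrome CTTAAG (2.19-fold), then GATTAC (2.18-fold) and AATCCT (2.13-fold) closed the list. AGATTA was at 24.1% of midpoints and 9.44% of flanks. AGCTTA was at 19.8% and 8.33%, and GGCTTA at 17.6% and 7.62%. The last 2 carry TAAGC, a weaker core of the same class of homeodomain. They were listed because of this ranking, so their counts describe the ranking and are not separate evidence.

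At least 1 of the 4 sequences was within 100 bp of the midpoint in 63.6% of the OTX2-alone peaks (63.3 to 64.0), in 61.0% of all OTX2 peaks and in 30.5% of flanking windows. GATTA or GCTTA was in this window in 75.4%, against 73.5% of all OTX2 peaks, 77.1% of distal OTX2 peaks with POU3F1 and 44.5% of flanks, which left 15527 OTX2-alone peaks, or 24.6%, with neither core. TAATTA was at 6.35% of midpoints and 6.51% of flanks, a difference of −0.163 points (−0.395 to 0.0722). With the letters of GATTA and GCTTA masked it was at 5.79% against 6.23%, a difference of −0.446 points (−0.670 to −0.218). The study uses GGTAAT as an approximation of the OTX2 sequence. It ranked 175 and was at 7.36% against 5.39%. The last-ranked sequence was ATATAT, at 3.87% of midpoints and 8.18% of flanks.

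Neighbouring GGATTA copies were more frequent at midpoints than in flanks, as single copies were. Pairs on the same strand whose starts lay within 40 bp numbered 599, against 49.5 per flank, and the commonest start distance was 9 bp, with 54 pairs against 5 per flank. Inverted pairs with TAATCC first numbered 208 against 36.5, and those with GGATTA first 154 against 20.5. The peaks with many GGATTA copies printed above are among those counted. That in Wnk2 is an array with a unit of 17 bases. The printed sequences of the Gucy1b2 and Gm20388 peaks also repeat a short unit, without meeting the array definition given below. Tandem repeats thus add to these pair counts. Pairs over all OTX2 peaks were not counted. Whether pairs exceed what the frequency of single copies gives was not tested.

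Sequences of other TF classes were checked with all letters of GATTA and GCTTA masked, because several overlap them. AGATAA, the GATA-type sequence, stood at 20.5% of midpoints against 12.7% of flanks before masking. After masking it was at 17.5% against 11.7%, a difference of 5.88 points (5.54 to 6.23). Masking exact cores leaves near matches, and AGATAA differs from AGATTA by 1 letter. GGATAA, 1 letter from GGATTA, was also more frequent at midpoints (1.87-fold). Which class of TF the AGATAA difference reflects was not tested. TGANTCA, read by AP-1 (FOS and JUN proteins), overlaps neither core and was at 9.05% against 6.06%. CAGCTG, an E-box, was at 10.2% against 8.13% after masking. AATCCACA, the FOXH1 sequence of the Nodal pathway, was at 1.11% against 0.754% after masking, a 1.46-fold ratio. TGTTTAC, read by forkhead proteins, differed by −0.0459 points (−0.205 to 0.116). CACGTG, another E-box, was lower at midpoints, at 1.503% against 2.215%. Before masking, AGATAA was at 20.5% of OTX2-alone peaks and 19.6% of all OTX2 peaks, and TGANTCA at 9.05% and 9.10%. CAGCTG was at 10.4% and 10.6%, and AATCCACA at 1.495% and 1.440%. These sequences were thus not particular to OTX2-alone peaks. A match is a run of letters and not a measured binding event.

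GGATTA was more frequent at OTX2-alone peaks than at distal OTX2 peaks with ZIC2, 25.3% against 20.3%, a difference of 4.99 points (4.15 to 5.82) that had the same sign on 20 of 20 chromosomes and in 10 of 10 score classes. The score classes divide the distal OTX2 peaks into 10 equal parts by score. GGATTA was also more frequent than at peaks with SOX2 (18.9%, a difference of 6.34 points, 5.30 to 7.34) and with POU3F1 (21.5%, 3.78 points, 2.72 to 4.81). Against peaks with POU5F1 the difference was 1.66 points (0.339 to 2.93), with the same sign on 13 of 20 chromosomes and in 7 of 10 score classes. AGATTA followed another order: OTX2-alone peaks had it more often than peaks with ZIC2 (15.9%) and less often than peaks with POU3F1 (26.9%, a difference of −2.83 points, −3.95 to −1.72).

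The sequences of the absent TFs were scarcer at OTX2-alone peaks than at peaks with that TF. CAGCAGG, a ZIC sequence, was at 5.14%, against 10.96% with ZIC2, a difference of −5.82 points (−6.45 to −5.22) with this sign on all 20 chromosomes. ACAAAG, a SOX sequence, was at 20.0%, against 28.8% with SOX2, a difference of −8.88 points (−10.04 to −7.74). The octamer ATGCAAAT was at 1.68%, against 4.59% with POU5F1 and 4.71% with POU3F1. In their own flanks the OTX2-alone peaks had 4.48%, 18.3% and 1.24% of these 3 sequences, so their midpoints stood 0.664, 1.69 and 0.441 points above flank level. Flanks of the other groups were higher: CAGCAGG 6.81% with ZIC2, ACAAAG 19.8% with SOX2, and the octamer 1.54% with POU5F1 and 1.93% with POU3F1. Part of each difference was thus present in the surrounding sequence. A second, shorter SOX sequence, ACAAT, was at 31.5% of their midpoints, a difference of −1.97 points from the flanks (−2.41 to −1.52), and at 41.7% with SOX2 and 25.04% with ZIC2.

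**Figure D2:**
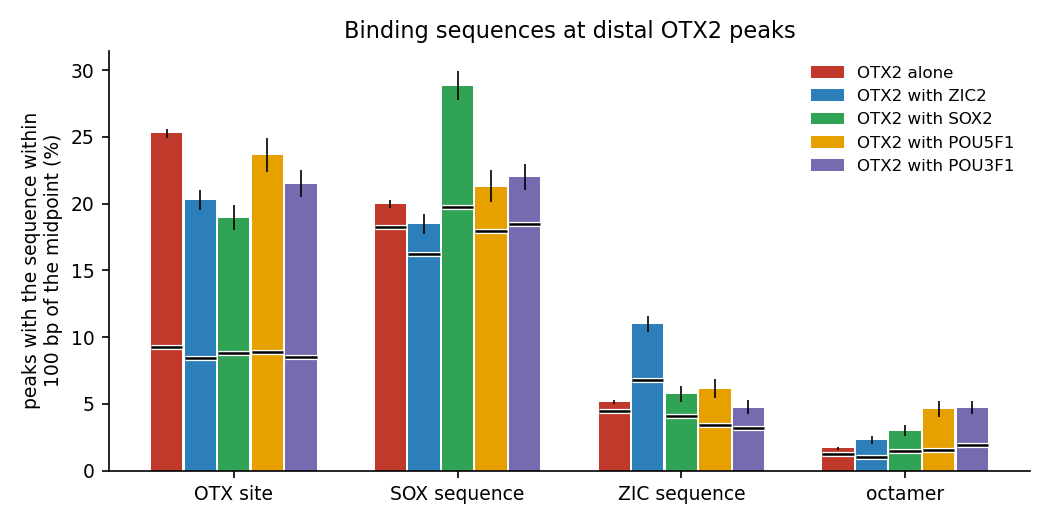
Share of distal OTX2 peaks (%) with the OTX site (GGATTA), SOX sequence (ACAAAG), ZIC sequence (CAGCAGG) or octamer (ATGCAAAT) within 100 bp of the midpoint, with 95% Wilson intervals, and black lines for the share in flanking windows. OTX2-alone peaks had the OTX site at 25.3% and the ZIC sequence at 5.14%, while each group with another TF had more of that TF's own sequence.

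GC content differed between the groups. It was 43.4% ± 5.00 (SD, n = 63192 peaks) within 100 bp of the midpoints of OTX2-alone peaks and 42.9% in their flanks. It was 47.6% ± 5.72 with ZIC2, 41.2% with SOX2, 41.5% with POU5F1 and 39.5% with POU3F1. Weighting both groups to the same flank GC content, an alternative chosen after seeing the data, left the GGATTA difference from peaks with ZIC2 at 4.86 points (3.96 to 5.75).

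The scores of OTX2-alone peaks ran from 50 to 2399 with a median of 94.7 (quartiles 65.2 and 155), and their median width was 788 bp (quartiles 671 and 973). The rule did not use the score, but width bears on whether a peak overlaps another, and both are given as description. GGATTA density inside the peaks was nearly level over the 10 score classes, between 0.900 and 0.957 per kb, and the bases 1000 to 2000 bp outside the peaks had 0.456 to 0.513 per kb. Median width went from 633 bp in the lowest class to 1374 bp in the highest. The mean number of GATTA and GCTTA copies per peak went with it, from 3.05 to 7.32.

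Near the midpoint the order was the other way. GGATTA was at 25.3% of midpoints in the lowest class, 26.9% in the fourth class and 22.2% in the highest, and the 4 sequences together at 65.8% and 57.4% in the lowest and highest class. Peaks with no GATTA or GCTTA within 100 bp had a median score of 101, those with 1 copy 94.5, and those with 5 or more 94.1, so more copies near the midpoint did not come with a higher score. The midpoint is the centre of the called interval and not a measured summit.

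**Figure D3:**
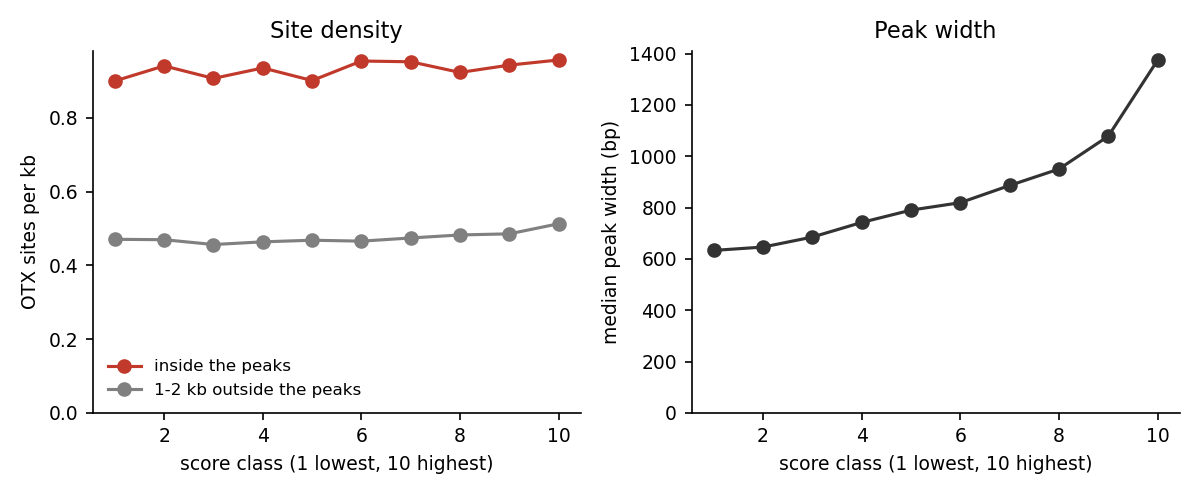
Left, OTX sites (GGATTA) per kb inside OTX2-alone peaks and 1000 to 2000 bp outside them, by score class; right, median peak width in bp. Site density was between 0.900 and 0.957 per kb in every class, while the median width went from 633 to 1374 bp.

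Tandem arrays were rare but stood among the highest scores. An array was defined, after seeing the strongest peaks, as a stretch of 200 bp to either side of the midpoint of which 70% of the bases match themselves when shifted by a unit of at least 8 bases. It was found at 116 OTX2-alone peaks, or 0.184%, and at 0.170% of windows of the same length to either side of the peaks. Shorter repeats, such as those printed for Gucy1b2 and Gm20388, did not meet this definition and are not in the count. Arrays were at 0.195% of all OTX2 peaks and at 0.352% (0.257 to 0.483) of distal OTX2 peaks with ZIC2, and were thus not particular to OTX2-alone peaks. The share was 0.0902% in the lowest score class and 0.712% in the highest, and arrays made up 10 of the 100 highest-scoring peaks. The median score was 185 for arrays and 94.6 for the other peaks. Because the definition was made after the strongest peaks were seen, these score values are description and not separate evidence. Of the 116, 81 held at least 1 of the 4 sequences and 17 had no GATTA or GCTTA anywhere. How many reads mapped to several places in these arrays was not tested.

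In the activin-free culture, 49616 of the 63192 OTX2-alone peaks, or 78.5% (78.2 to 78.8), overlapped an OTX2 peak again, close to the background of 78.1% over all OTX2 peaks. This library was not used to select the peaks. The share was higher than the 70.3% at distal OTX2 peaks with ZIC2, a difference of 8.25 points (7.34 to 9.18) seen on 20 of 20 chromosomes. It was lower than with SOX2 (89.96%, −11.4 points, −12.2 to −10.6), POU5F1 (86.7%, −8.20 points, −9.22 to −7.12) and POU3F1 (92.3%, −13.8 points, −14.5 to −13.0).

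The share depended on score in every group. In the lowest score class 49.6% of OTX2-alone peaks overlapped an activin-free OTX2 peak, against 26.2% with ZIC2 and 66.8% with SOX2, and in the highest class the first 2 shares were 99.98% and 99.94% and all 1096 peaks with SOX2 did. The groups thus came together at high scores. Weighting both groups to the same score classes, again chosen after seeing the data, gave a difference from peaks with ZIC2 of 12.1 points (11.3 to 12.8).

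**Figure D4:**
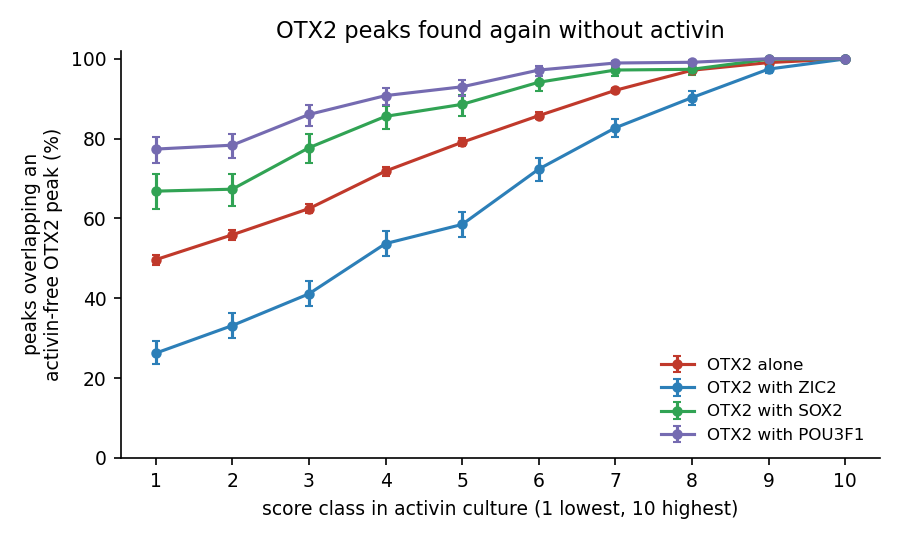
Share of distal OTX2 peaks (%) that overlapped an OTX2 peak of the activin-free culture, by score class in activin culture, with 95% Wilson intervals. In the lowest class OTX2-alone peaks were at 49.6%, between peaks with ZIC2 (26.2%) and peaks with SOX2 (66.8%), and all groups were close to 100% in the highest class.

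The 13576 OTX2-alone peaks without an activin-free OTX2 peak had a median score of 63.6, against 110 for the others, and the highest of them scored 312. They held GGATTA in 23.6% (22.9 to 24.3), against 25.7% (25.4 to 26.1) for those found again. Their GC content was 45.2% against 42.9%. In the lowest score class, where 3349 peaks were not found again and 3301 were, GGATTA was at 23.7% and 26.9%. Over the peaks found again, the 2 OTX2 scores had a Spearman correlation of 0.620 (n = 49616 peaks, each from the same pair of libraries). The activin-free score was the higher of the 2 in 72.9%, and the activin-free OTX2 list was larger in all, with 114041 peaks.

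Most OTX2-alone peaks also overlapped no called peak of the other TFs in the activin-free culture. An activin-free peak of ZIC2, SOX2, POU5F1 or POU3F1 overlapped 8.65% of them (8.43 to 8.87), where the background over all OTX2 peaks was 32.8%. By TF the shares were 1.26% for ZIC2, 3.70% for SOX2, 3.07% for POU5F1 and 1.21% for POU3F1. Distal OTX2 peaks that carried another TF in EpiSCs overlapped an activin-free peak of these TFs in 84.0%. The groups were divided by EpiSC peaks of the same TFs, so this contrast reflects how far each TF's lists overlap between the cultures. In all, 44976 OTX2-alone peaks, or 71.2%, overlapped an activin-free OTX2 peak and no activin-free peak of the other 4 TFs. Such absence means only that no called peak shared a base. In EpiSCs, 22.4% of OTX2-alone peaks had a peak of another TF within 1000 bp.

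The same rule applied to the activin-free lists selected 67054 peaks, or 67.2% of the distal activin-free OTX2 peaks. Of these, 61.8% overlapped an OTX2-alone peak of EpiSCs, and 67.7% of the EpiSC peaks overlapped one of them. GGATTA was at 23.3% of the activin-free set (23.0 to 23.6) and 8.70% of its flanks. The 22944 of them without any EpiSC OTX2 peak had GGATTA at 21.3% (20.8 to 21.8) and a median score of 71.9.

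OTX2-alone peaks lay in introns more often than distal sequence as a whole. Their midpoints were in introns in 50.9% (50.5 to 51.3), in exons in 2.59% and outside genes in 46.5%, while introns made up 36.6% of all distal bases, exons 2.29% and bases outside genes 61.1%. The intron share differed by −1.88 points from that at distal OTX2 peaks with another TF (52.8%, interval of the difference −2.62 to −1.13) and by 1.15 points from that at those with ZIC2 (49.8%, 0.129 to 2.17). The median distance to the nearest TSS was 16634 bp, 77.7% lay within 50 kb of one and 10.5% lay over 100 kb away. The nearest peak of another TF was at a median distance of 2919 bp and was a ZIC2 peak in 47.8%.

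Peaks just inside and just outside the limits of the rule were alike in their values. OTX2 peaks without another TF that lay up to 500 bp beyond the 2000 bp limit numbered 2085 with a median score of 102.5, and those up to 500 bp inside it numbered 2145 with a median score of 101.6. Peaks with another TF's peak 0 to 100 bp away held GGATTA in 24.1%, and distal OTX2 peaks sharing 1 to 100 bp with such a peak in 25.4%.

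Along the chromosomes the peaks were uneven. The density was 24.7 per Mb in all, from 21.3 to 38.2 per Mb on the autosomes and 8.28 per Mb on the X. On the X, 80.8% of distal OTX2 peaks were without another TF, against 71.1% to 74.4% on the autosomes, and 84.9% overlapped an activin-free OTX2 peak, the highest share of the 20 chromosomes. Segments of 1 Mb held a median of 23 peaks, and 95 of 2565 segments held none. By GC content, the median was 3 peaks in segments under 38% GC, 15 from 38% to 41%, 32 from 41% to 44%, 39 from 44% to 47% and 35 above that. The fullest segments were chr8:109000001-110000000 with 92 peaks, chr15:102000001-103000000 with 86 and chr14:65000001-66000000 with 85, which held TSSs of 21, 34 and 8 protein-coding genes.

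Each peak was assigned to the protein-coding gene with the nearest TSS. By this assignment 14778 of 22350 genes, 66.1%, had at least 1 OTX2-alone peak, the median was 1, and the 1508 genes with 10 or more took 34.6% of the peaks. The 10 genes with the most were Auts2 (75 peaks), Plxna2 (55), Cadm1 (54), Pard3 (51), Magi1 (50), Ptprt (49), Jarid2 (42), Dlg2 (41), Rbfox1 (41) and Cux1 (38), the last taken by name from several genes tied at 38. Plxna2 encodes a semaphorin receptor, Cadm1 an adhesion molecule, Pard3 a polarity protein, Jarid2 a Polycomb partner and Cux1 a homeodomain protein. The span of sequence nearest to a gene bears on such counts. It was 1940 kb for Auts2, or 3.87 peaks per 100 kb, and 318 kb for Cux1, or 12.0 per 100 kb, against 2.40 per 100 kb over all genes.

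Genes of the early embryo were set against this background of 66.1% by lists, and shares such as 14 of 20 lie close to it. Of 20 primed epiblast genes 14 had a peak, among them Etv5 (10 peaks), Otx2 itself (10) Foxd3 (7), a forkhead TF gene, and Dnmt3b (7), which encodes a de novo DNA methyltransferase. All 10 peaks nearest to Otx2 overlapped an activin-free OTX2 peak, and the strongest scored 350. Cldn6, Fgf5, Tead2, Utf1, Zic2 and Zic5 had none. In every list, genes without an OTX2-alone peak can still have OTX2 peaks that the rule leaves out. Distal OTX2 peaks with another TF were nearest to Zic2 (2), Fgf5 (1), Utf1 (1) and Zic5 (1), but not to Cldn6 or Tead2. Of 19 naive pluripotency genes 16 had an OTX2-alone peak. The Krüppel-like factor genes Klf5 (24) and Klf4 (20) led, followed by the nuclear receptor genes Esrrb (11) and Nr5a2 (11). Within 100 kb of a TSS these counts were 11, 2, 11 and 3, so most peaks assigned to Klf4 lay far from it. Of the 11 peaks at Esrrb, 6 overlapped an activin-free OTX2 peak. Dppa5a, Gbx2 and Zfp42 had no OTX2-alone peak, though distal OTX2 peaks with another TF were nearest to Gbx2 (2) and Zfp42 (1).

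Genes of the head, where OTX2 acts later, came next. Of 18 forebrain and eye field genes 15 had one, led by Sp8 (14), Emx2 (10), Barhl2 (9), Pax6 (8) and Six3 (8), all TF genes, and Rax and Six6 were among those with none. Within 100 kb of a TSS, Sp8 and Emx2 had 8 each, Pax6 had 6, Barhl2 4 and Six3 2. All 14 peaks assigned to Sp8 overlapped an activin-free OTX2 peak. Of 15 midbrain and hindbrain boundary genes 13 had one, led by the TF genes Pax3 (15), En1 (8), Pax5 (8) and Pax8 (6). Within 100 kb of a TSS these counts were 5, 4, 8 and 6. Fgf17 and Gbx1 had none. Of 19 genes in the photoreceptor and pineal list, which also holds pigment cell genes, 12 had one. OTX2 or the related CRX controls several of the listed genes in the eye. The pigment cell genes Dct (11), Mitf (11) and Tyrp1 (11) came first, with 3, 8 and 5 of these peaks within 100 kb of a TSS. Crx, Pde6b and Rcvrn had 3 each. Aanat, Best1, Cnga1, Neurod1, Rbp3 and Tyr were among those with none.

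Of 20 primitive streak and endoderm genes 16 had a peak. Dkk1 (16), a Wnt inhibitor, the endoderm TF genes Gata6 (16) and Foxa2 (15), and Nog (11), a BMP inhibitor, led. Within 100 kb of a TSS these counts were 13, 9, 10 and 10. Cdx2, Tbx6, Wnt3 and Wnt3a had none. Of 20 Nodal and activin pathway genes 16 had one, among them the receptor gene Acvr2a (21), Inhba (17), which encodes the activin A subunit, Smad2 (9) and Tgif1 (9). Within 100 kb of a TSS Acvr2a had 6 of its 21 peaks and Inhba 1 of its 17. Nodal itself, Gdf3, Foxh1 and Smad4 had no OTX2-alone peak. Distal OTX2 peaks with another TF were nearest to Nodal (4) and Smad4 (2), but not to Gdf3 or Foxh1. Among the 21 cell adhesion and axon guidance gene entries (Efna5 has 2 identifiers) 20 had an OTX2-alone peak. Slit3 (32), Epha4 (29), Robo1 (25) and Efna5 (24) led, and Dcc had none. Within 100 kb of a TSS the counts of these leading genes were 23, 9, 9 and 11. Of 20 ribosomal protein genes 9 had one, none with more than 3 (Rpl5).

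The lists also differed in the span of sequence nearest to their genes. The median span was 680 kb for the adhesion and guidance genes, with 1.33 peaks per 100 kb, and 12.3 kb for the ribosomal protein genes, with 3.44 per 100 kb. Primitive streak and endoderm genes had 3.66 per 100 kb, primed epiblast genes 2.88, naive pluripotency genes 2.46 and the boundary genes 2.45. Forebrain genes had 2.43, the Nodal and activin genes 1.87 and the photoreceptor and pineal list 1.61. The order by density thus differed from the order by share of genes, and no gene activity was measured in these libraries.

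**Figure D5:**
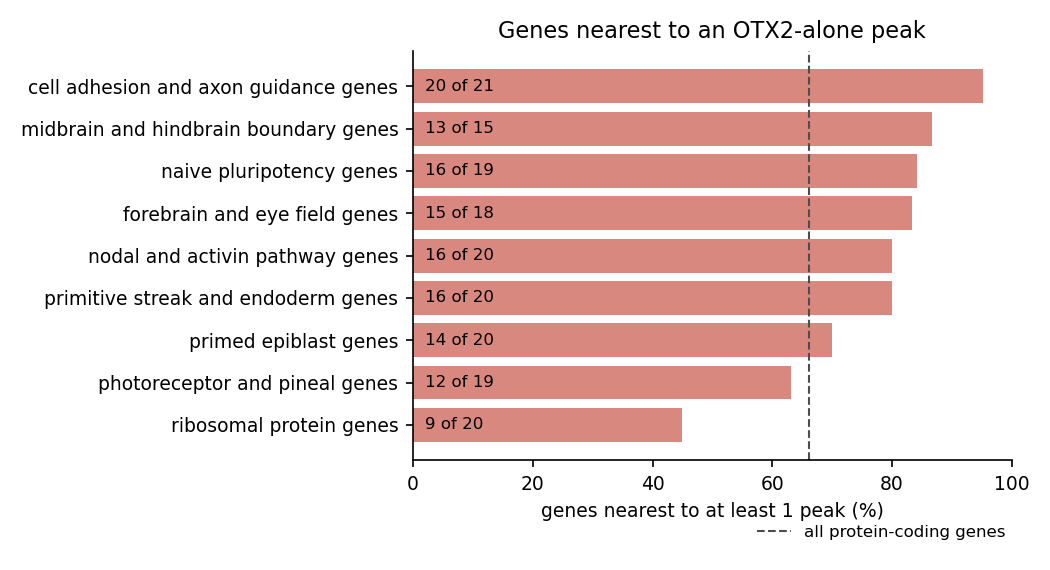
Share of the genes in each list (%) with at least 1 OTX2-alone peak nearest to a TSS, with the count in each bar; the dashed line marks 66.1%, the share over all 22350 protein-coding genes. Ribosomal protein genes (9 of 20) lay lowest, and adhesion and guidance genes (20 of 21) highest.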

How the data were processed

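ChIP-seq was performed by the study on biotin-tagged TFs in EpiSCs, and an input library has no peak list here. The authors aligned reads to mm9 with Bowtie2, per the labels, and called peaks with MACS, so the deposited lists give each peak's interval and score, with no reads or summits. From these files, midpoints were compared with TSSs of 95414 GENCODE transcripts (release vM1), overlaps counted from 1 bp, and sequence read from NCBIM37, the same build. Motif letters were searched on both strands. Shares have Wilson and differences Newcombe 95% intervals. No P value was computed, since each group has 1 library. Tools were Python 3.11.15, numpy 2.4.6, pandas 2.3.3 and matplotlib 3.10.9, tested on simulated data. Peaks, genes and 6-base sequences were named by ranks (score, copies, count, ratio) and, per list, the 4 genes with most peaks (ties included) and those with none. Of the listed genes, Tfcp2l1 and Asmt were not matched, and a few genes are not reported here. The members and lists were chosen with earlier results of these data known. Alternatives varied the score, window, width, overlap, flank, TSS set and gene assignment.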

Additional observations from a re-analysis of the deposited data

How the results depend on the processing

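In all, 35 alternatives were computed, 31 of them planned. Of these, 9 concerned differences, namely GGATTA against flanks and GGATTA and the activin-free OTX2 share against peaks with ZIC2, and these kept their direction. Differences from peaks with SOX2, POU5F1 or POU3F1 were not recomputed. With 1 library per group, score limits and windows move the levels. At an OTX2 score of at least 100, there were 29433 OTX2-alone peaks, GGATTA was at 24.2%, 94.9% had an activin-free OTX2 peak, 9.67% an activin-free peak of another TF, 53.1% were intronic and 49.9% of genes had a peak. Peaks under 1000 bp had GGATTA in 27.4% and an activin-free OTX2 peak in 73.8%. GGATTA was at 14.3% within 50 bp and 38.7% within 200 bp of the midpoint, and GGTAAT in its place at 7.36%. Asking for 50% of both peaks to be shared gave 68.4% with an activin-free OTX2 peak and 3.0% with another TF. Activin-free scores of at least 100 gave 56.8% and 3.96%. Protein-coding transcripts alone gave an intron share of 48.8%, and a limit of 100 kb a gene share of 65.0%. The GGATTA difference from peaks with ZIC2 stayed between 2.86 and 7.11 points, with intervals above 0. The activin-free difference from peaks with ZIC2 was 4.26 points with 50% of both peaks shared. Libraries could not be paired because each group has 1 library. Intervals for midpoints against flanks treat the windows as independent and do not use their pairing within each peak. Depth limits weak peaks: OTX2 peaks near the lowest score in 1 culture may be missed in the other list, and without reads this was not tested.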
